A study of Homo sapiens with 8 samples.

Results

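The genes described here are 10 regulators of apoptosis of the BCL2 family, taken by symbol from the 58219 genes listed for 8 RNA-seq libraries. They comprise 3 pro-survival members (BCL2, MCL1 and BCL2L1), 2 effectors (BAX and BAK1) and 5 BH3-only members (BCL2L11, PMAIP1, BBC3, BMF and BID). All 10 passed the filter on low counts. RNA came from H929 and KMS11 cells, established multiple myeloma (MM) cell lines that both carry the t(4;14) translocation, cultured in RPMI 1640 with 10% FBS. Each line received either 2 µM fluvastatin, a statin, or ethanol as the solvent for 24 h. The 4 groups therefore were H929 in ethanol, H929 in fluvastatin, KMS11 in ethanol and KMS11 in fluvastatin, with 2 libraries each that the study describes as biological replicates. The methods place this time before the onset of cell death at this dose. Each line is a single culture model, so a difference between the lines describes these lines and not t(4;14) disease.

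BCL2 family proteins decide whether the outer mitochondrial membrane stays intact. Pro-survival members bind and restrain the effectors BAX and BAK1, which otherwise form pores that release cytochrome c and start the caspase cascade. BH3-only proteins are the sensors of stress: they occupy the groove of the pro-survival proteins or activate the effectors directly. Plasma cells and MM cells are known for their reliance on MCL1, and PMAIP1 (NOXA) and BCL2L11 (BIM) are among the BH3-only proteins that bind it.

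Promoters were matched by symbol to a RefSeq table (GRCh38.p14) that holds 250 bases before and 50 after each start. It held 9 of the 10 members and did not hold MCL1. For each gene only the first start listed was used, and any other start was not scanned. The 4 BH3-only genes that rose in H929 and BAX, which fell there, are shown. BID, which also fell there and whose window held none of the motifs below, is not shown. BCL2L11 lies at chr2:111120664-111120963 on the plus strand, PMAIP1 at chr18:59899746-59900045 on the plus strand, BBC3 at chr19:47232618-47232917 on the minus strand, BMF at chr15:40108830-40109129 on the minus strand and BAX at chr19:48954625-48954924 on the plus strand. Sequences are given 5′ to 3′ on the gene's strand, and capitals mark matches on either strand to a FOXO core (GTAAACA), a CRE half-site (TGACGT), an E-box (CACGTG) or an AP-1 site (TGANTCA).
BCL2L11: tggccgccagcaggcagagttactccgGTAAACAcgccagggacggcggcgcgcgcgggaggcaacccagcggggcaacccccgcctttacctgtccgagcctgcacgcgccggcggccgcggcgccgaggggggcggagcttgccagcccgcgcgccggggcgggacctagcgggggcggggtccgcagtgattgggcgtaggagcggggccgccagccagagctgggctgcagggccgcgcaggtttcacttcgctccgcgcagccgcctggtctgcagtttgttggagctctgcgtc
PMAIP1: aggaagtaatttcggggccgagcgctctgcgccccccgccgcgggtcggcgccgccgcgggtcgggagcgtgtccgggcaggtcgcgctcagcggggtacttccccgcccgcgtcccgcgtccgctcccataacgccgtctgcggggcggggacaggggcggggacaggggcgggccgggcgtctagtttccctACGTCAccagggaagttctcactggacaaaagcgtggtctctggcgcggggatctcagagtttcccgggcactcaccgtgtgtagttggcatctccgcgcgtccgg
BBC3: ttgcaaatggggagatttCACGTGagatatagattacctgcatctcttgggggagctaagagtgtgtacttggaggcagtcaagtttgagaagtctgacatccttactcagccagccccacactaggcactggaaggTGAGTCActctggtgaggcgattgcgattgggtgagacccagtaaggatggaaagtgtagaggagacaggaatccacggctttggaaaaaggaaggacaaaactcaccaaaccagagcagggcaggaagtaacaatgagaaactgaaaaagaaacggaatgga
BMF: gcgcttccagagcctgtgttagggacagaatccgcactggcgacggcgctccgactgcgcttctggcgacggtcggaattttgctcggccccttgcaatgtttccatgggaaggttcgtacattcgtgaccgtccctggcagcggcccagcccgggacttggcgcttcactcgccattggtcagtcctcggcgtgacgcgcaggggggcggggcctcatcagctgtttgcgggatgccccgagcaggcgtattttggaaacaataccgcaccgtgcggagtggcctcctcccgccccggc
BAX: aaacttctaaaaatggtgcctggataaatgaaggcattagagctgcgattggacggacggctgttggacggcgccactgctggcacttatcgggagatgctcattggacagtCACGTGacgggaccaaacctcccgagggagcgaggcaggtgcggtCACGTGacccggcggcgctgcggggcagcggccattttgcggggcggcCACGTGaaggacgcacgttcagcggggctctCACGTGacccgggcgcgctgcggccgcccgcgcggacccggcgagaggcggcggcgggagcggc

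These letters were found in 3.42% (FOXO core), 7.98% (CRE half-site), 7.26% (E-box) and 7.71% (AP-1 site) of all 35116 promoters of the same length in the table. BCL2L11 held the FOXO core with its first base at -223 from the start, and PMAIP1 held the CRE half-site at -56. BBC3 held an E-box at -232 and an AP-1 site at -113. BAX held 4 E-boxes, at -138, -93, -45 and -14. None of the matches overlapped another, and the windows of BMF, BCL2, BCL2L1, BAK1 and BID held none of the 4 motifs. A match is a description of letters and was not tested for binding.

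Libraries held 26702515 to 41910446 expected counts. KMS11 fluvastatin replicate 1 held 88.1% protein-coding counts, against 90.9% to 91.4% in the other KMS11 libraries, and the replicates of that group differed most (chi-square per degree of freedom 37.8, against 9.97 to 18.1 in the other groups). Plasma cell markers were present in both lines (SDC1 38.8 to 122 TPM and TNFRSF17 130 to 480 TPM), although CD38 was at 0.04 TPM or below in every KMS11 library. Of 10 such markers in H929, 3 rose and 3 fell with fluvastatin, while 1 fell in KMS11. The risers in H929 were NSD2 (0.42, adjusted p = 0.0068), JCHAIN (0.36, adjusted p = 0.022) and PRDM1 (0.32, adjusted p = 0.015). The fallers there were SDC1 (-1.08, adjusted p = 0.00086), SLAMF7 (-0.98, adjusted p = 0.0003) and XBP1 (-0.34, adjusted p = 0.0083). XBP1 was also the faller in KMS11 (-0.40, adjusted p = 0.035). The summed level of the 10 was 6080 to 7040 TPM in ethanol and 7020 to 7990 TPM in fluvastatin in H929, and 6540 to 7020 TPM against 4670 to 5830 TPM in KMS11. The B cell markers MS4A1 and PAX5 stayed at or below 0.02 TPM. Of 12 markers of other cell types, 5 passed the filter, and their 12-gene sum was 8.37 and 9.77 TPM in ethanol and 9.40 and 12.3 TPM in fluvastatin in H929, against 38.1 and 34.1 TPM and 32.6 and 38.1 TPM in KMS11, where EPCAM alone gave 30.2 to 35.9 TPM. In H929 CD3E (1.13, adjusted p = 0.0031) and PTPRB (2.23, adjusted p = 0.0023) rose, at no more than 3.54 and 0.14 TPM, and CD14 was at 0. The part of these markers in the results was not tested. The share of counts from mitochondrial genes was higher in fluvastatin in both lines, at 0.75% and 0.72% in ethanol and 0.90% and 1.06% in fluvastatin in H929, and at 0.52% and 0.53% against 0.68% and 0.66% in KMS11. Its part in the results was not tested.

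More BCL2 family members were called as changed by fluvastatin in H929 than in KMS11. In H929, 6 of the 10 members rose (MCL1, BAK1, BCL2L11, PMAIP1, BBC3 and BMF), 2 fell (BAX and BID), and BCL2 and BCL2L1 did not pass the threshold, an adjusted p under 0.05 (edgeR, Benjamini-Hochberg over the 13129 protein-coding genes tested). Of all genes tested in H929, 42.0% were called, 22.7% higher and 19.3% lower, so that a large share of calls is the background against which 8 of 10 stands. In KMS11 only BBC3 passed, and it rose, where 3.12% of all genes were called and 2.58% were called higher. The 409 genes behind that share moved with single libraries. Leaving out ethanol replicate 1 of KMS11 left 63 calls, leaving out ethanol replicate 2 left 72, and leaving out fluvastatin replicate 2 gave 2148. The median log2 fold change of the members was 0.65 in H929 and 0.28 in KMS11, against 0.02 and 0.00 over all genes tested. Whether called or not, 7 of the 10 members had a positive value in H929 and 9 in KMS11. By role, the pro-survival members had 1 riser of 3 in H929, the effectors 1 riser and 1 faller, and the BH3-only members 4 risers and 1 faller. All changes are in RNA from whole cultures, where fewer cells of a kind and less RNA per cell cannot be told apart. Both comparisons of fluvastatin with ethanol use the same 4 group means as the comparisons between lines below, so they share libraries.

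**Figure D1:**
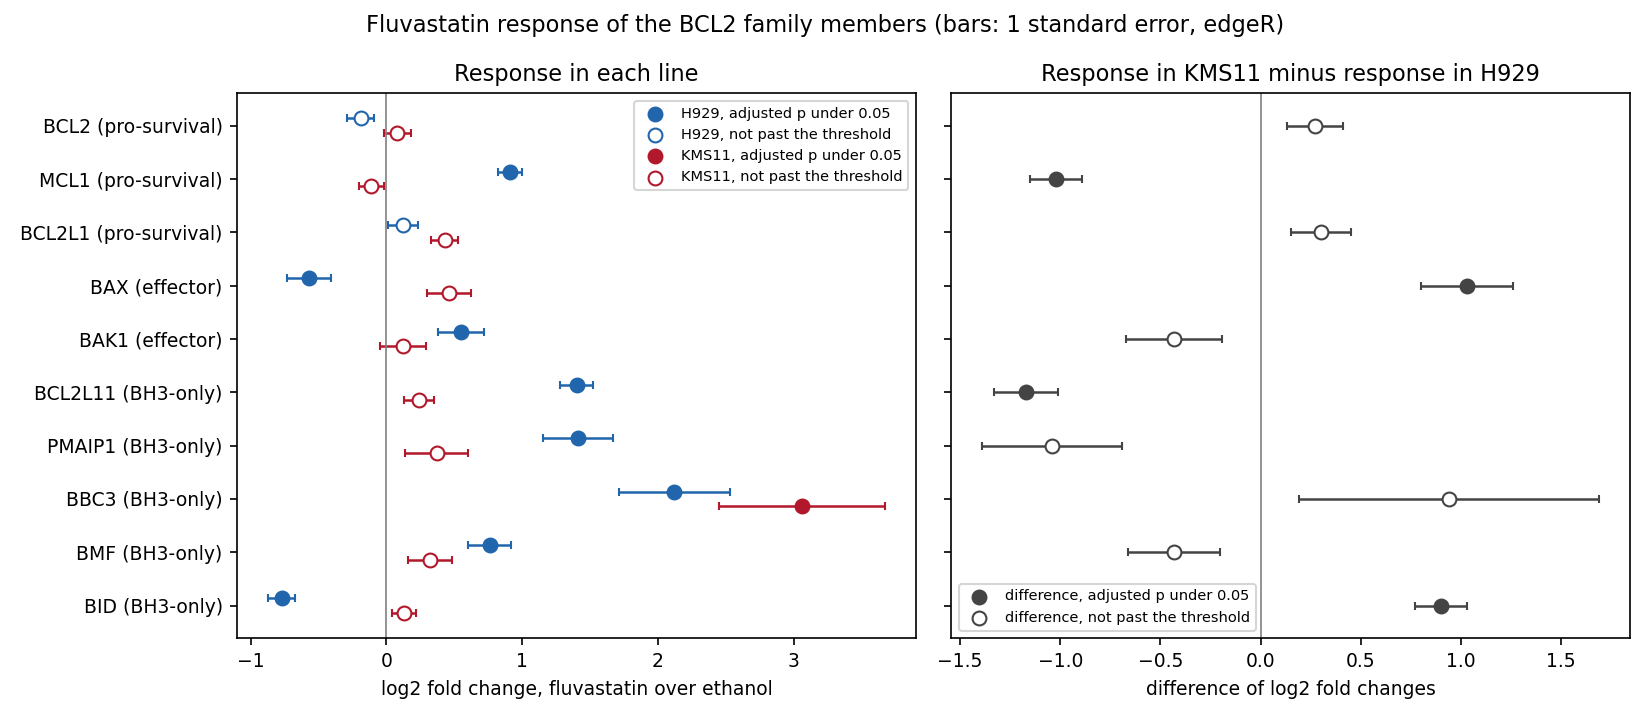
Log2 fold change (x axis, fluvastatin over ethanol) of each member (y axis) in H929 (blue) and KMS11 (red) on the left, and the KMS11 response minus the H929 response on the right, with bars of 1 standard error. Filled points passed an adjusted p under 0.05: 8 members in H929, BBC3 in KMS11, and MCL1, BAX, BCL2L11 and BID for the difference.

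Among the pro-survival members, MCL1 was the transcript that moved. MCL1 (ENSG00000143384.12, chr1:150560895-150579738, minus strand) encodes a short-lived guardian that binds BAK1 and several BH3-only proteins. Its level was 142 and 145 TPM in H929 in ethanol and 269 in both fluvastatin libraries, while KMS11 gave 137 and 117 TPM in ethanol and 95.5 and 116 TPM in fluvastatin. The fluvastatin libraries of H929 were thus clearly apart from the ethanol libraries. In TPM the fluvastatin libraries of KMS11 lay below their ethanol libraries, with only a narrow gap at the nearest pair. The KMS11 groups overlapped in CPM, at 653 and 587 in ethanol and 548 and 601 in fluvastatin. MCL1 rose 1.88-fold in H929 (log2 fold change 0.91, standard error 0.09, adjusted p = 6.4e-05), a call kept in all 17 alternative analyses. In KMS11 the log2 fold change was -0.11 (standard error 0.09, adjusted p = 0.50).

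BCL2 (ENSG00000171791.12, chr18:63123346-63320128, minus strand) is the founding pro-survival member and the target of venetoclax. It was present at 5.67 and 5.86 TPM in H929 in ethanol and 4.56 and 5.07 TPM in fluvastatin, and at 8.94 and 7.30 TPM in KMS11 in ethanol and 7.02 and 8.30 TPM in fluvastatin. The H929 groups did not overlap and the KMS11 groups did, but neither change passed the threshold (log2 fold change -0.19, adjusted p = 0.15 in H929 and 0.08, adjusted p = 0.68 in KMS11). BCL2L1 (ENSG00000171552.12, chr20:31664452-31723989, minus strand), which encodes BCL-xL, was read at 11.1 and 10.4 TPM in ethanol and 11.8 and 12.1 TPM in fluvastatin in H929. In KMS11 it was read at 32.4 and 30.5 TPM in ethanol and 36.6 and 34.4 TPM in fluvastatin. Fluvastatin libraries were the higher ones in both lines without overlap, yet the tests gave 0.12 (adjusted p = 0.38) in H929 and 0.43 (adjusted p = 0.058) in KMS11. The KMS11 value passed the threshold without KMS11 fluvastatin replicate 2 (0.50, adjusted p = 0.012) and in DESeq2 (0.39, adjusted p = 0.033).

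The effectors moved in opposite directions in H929. BAX (ENSG00000087088.19, chr19:48954815-48961798, plus strand), which moves from the cytosol to mitochondria when activated, was at 32.5 and 26.1 TPM in H929 in ethanol and 21.0 and 19.4 TPM in fluvastatin. In KMS11 it was at 23.3 and 21.8 TPM in ethanol and 30.7 and 24.6 TPM in fluvastatin. The groups were separate in both lines, with fluvastatin lower in H929 and higher in KMS11. In H929 BAX fell to 0.67 of its ethanol level (log2 fold change -0.57, standard error 0.16, adjusted p = 0.018), and without H929 ethanol replicate 1 or H929 fluvastatin replicate 2 the change was -0.50 (adjusted p = 0.091) or -0.49 (adjusted p = 0.10). In KMS11 the log2 fold change was 0.46 (standard error 0.16, adjusted p = 0.15), and it passed without KMS11 fluvastatin replicate 2 (0.65, adjusted p = 0.0089).

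BAK1 (ENSG00000030110.12, chr6:33572547-33580293, minus strand), the effector that sits in the mitochondrial membrane at rest, was at 33.3 and 28.0 TPM in H929 in ethanol and 48.0 and 41.6 TPM in fluvastatin. In KMS11 it was at 21.4 and 19.7 TPM in ethanol and 23.2 and 16.98 TPM in fluvastatin. Fluvastatin was higher in H929 without overlap, and in KMS11 the ethanol libraries lay between the fluvastatin ones. BAK1 rose by 0.55 (standard error 0.17, adjusted p = 0.027) in H929 and gave 0.12 (standard error 0.17, adjusted p = 0.70) in KMS11. The H929 call was lost without H929 fluvastatin replicate 1 (0.43, adjusted p = 0.13), H929 ethanol replicate 2 (0.44, adjusted p = 0.15) or either KMS11 ethanol library (0.51 and adjusted p = 0.051 for both). BAK1 is the only member whose expected counts were not whole numbers, in all 8 libraries, and its processed copy BAK1P1 on chromosome 20 held 5.03 to 32.7 counts against 1996 to 4648 for BAK1, so the split between them is uncertain.

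**Figure D2:**
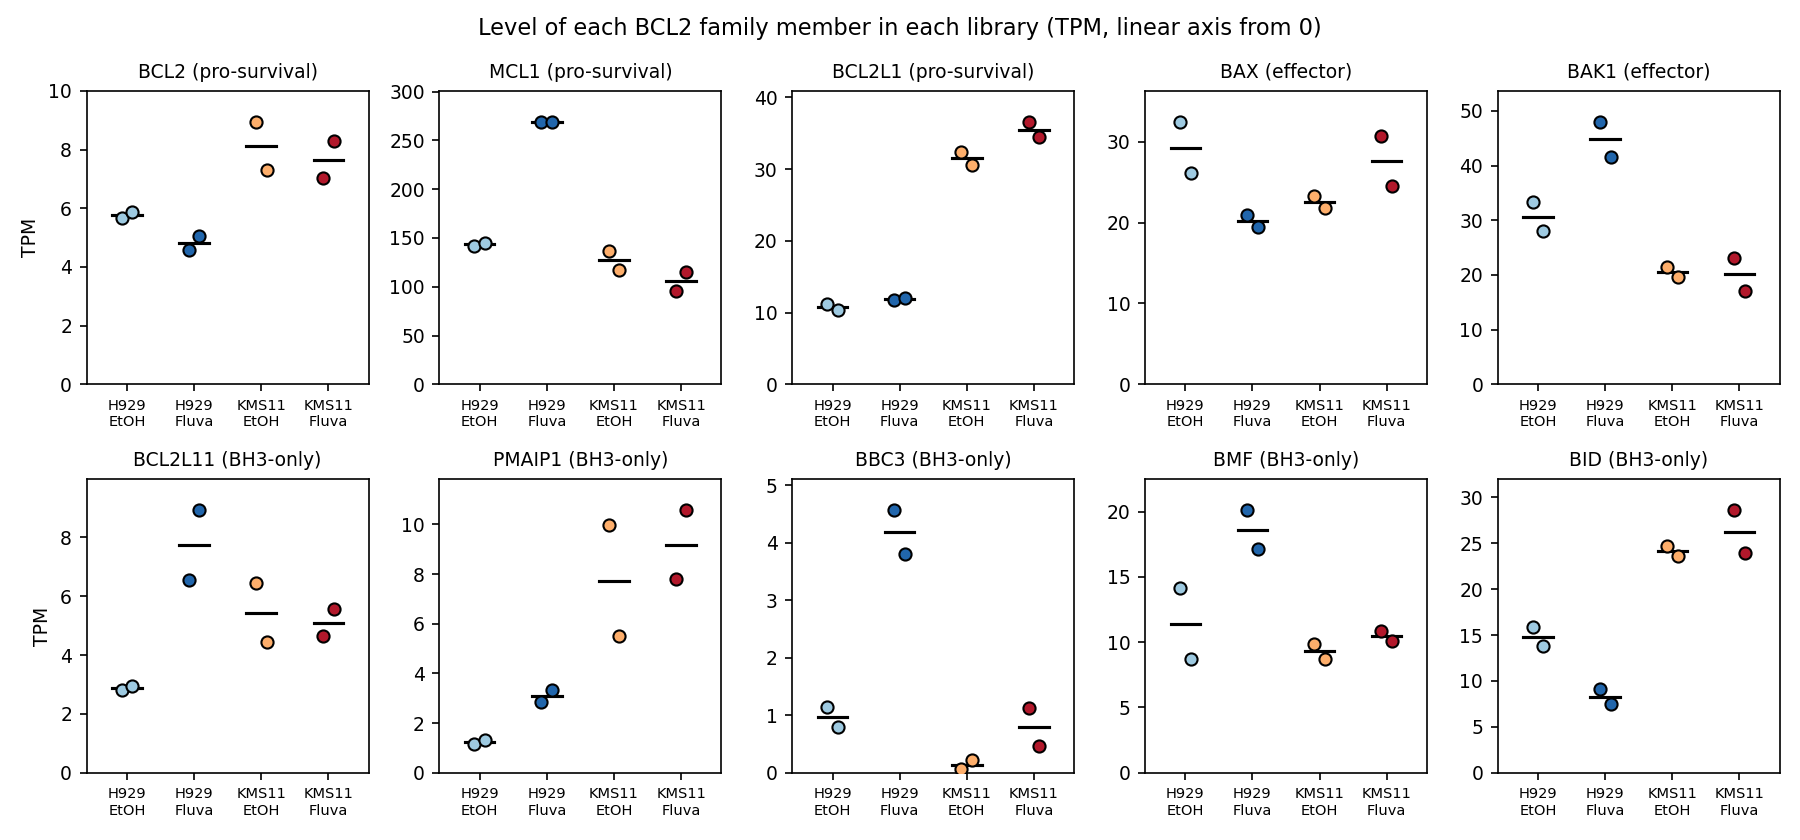
Level in TPM (y axis, linear from 0) of each member in the 2 libraries (points) and their mean (line) of each line and treatment (x axis, EtOH is ethanol and Fluva is fluvastatin). MCL1 reached 269 TPM in both H929 fluvastatin libraries, whereas BBC3 stayed at or below 1.13 TPM in KMS11.

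Among the BH3-only members, 4 of 5 rose in H929 and BID fell. BCL2L11 (ENSG00000153094.22, chr2:111119378-111168444, plus strand) encodes BIM, which binds every pro-survival protein and activates the effectors. It was at 2.82 and 2.96 TPM in H929 in ethanol and 6.56 and 8.91 TPM in fluvastatin, and at 6.44 and 4.44 TPM and 4.64 and 5.56 TPM in KMS11. The H929 groups were far apart, while in KMS11 the fluvastatin libraries lay within the range of the ethanol ones in TPM. In CPM the KMS11 groups did not overlap, at 31.2 and 30.6 in ethanol and 35.9 and 36.8 in fluvastatin. BCL2L11 rose 2.64-fold in H929 (log2 fold change 1.40, standard error 0.12, adjusted p = 2.1e-05), and gave 0.24 (standard error 0.11, adjusted p = 0.25) in KMS11. The long noncoding gene MIR4435-2HG, at up to 104 TPM, overlaps BCL2L11 on the opposite strand, and the library kit keeps strand. Whether reads of MIR4435-2HG enter the BCL2L11 counts was not tested.

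PMAIP1 (ENSG00000141682.11, chr18:59899996-59904305, plus strand) encodes NOXA, a BH3-only protein that favours MCL1 as its partner. In H929 it was read at 1.16 and 1.32 TPM in ethanol and at 2.86 and 3.34 TPM in fluvastatin. In KMS11 it was read at 9.96 and 5.51 TPM in ethanol and at 7.79 and 10.6 TPM in fluvastatin. The 4 KMS11 libraries all stood above those of H929 and overlapped between treatments. PMAIP1 rose 2.65-fold in H929 (log2 fold change 1.41, standard error 0.26, adjusted p = 0.0020), and in KMS11 it gave 0.37 (standard error 0.23, adjusted p = 0.37).

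BBC3 (ENSG00000105327.17, chr19:47220822-47232766, minus strand) encodes PUMA, a BH3-only protein that binds all pro-survival members. Its counts were 82 and 45 in H929 in ethanol and 262 and 214 in fluvastatin, and 3 and 10 in KMS11 in ethanol against 60 and 34 in fluvastatin. In TPM these are 1.14 and 0.79 against 4.56 and 3.81 in H929, and 0.06 and 0.22 against 1.13 and 0.47 in KMS11. The treatments were separate in both lines, and BBC3 was the scarcest member in every group except H929 in fluvastatin. BBC3 rose 4.35-fold in H929 (log2 fold change 2.12, standard error 0.41, adjusted p = 0.0023) and rose in KMS11 (log2 fold change 3.06, standard error 0.61, adjusted p = 0.028). Pooled KMS11 counts rose from 13 to 94, a ratio scaled for library size of 8.20 with an exact 95% interval of 4.57 to 16.0 that covers counting error only. The KMS11 call was lost without ethanol replicate 1 (2.39, adjusted p = 0.24), ethanol replicate 2 (4.14, adjusted p = 0.086) or fluvastatin replicate 1 (2.32, adjusted p = 0.066), and in limma on log2(TPM + 1), where the change was 0.64 (adjusted p = 0.10).

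BMF (ENSG00000104081.13, chr15:40087890-40108892, minus strand) encodes a BH3-only protein that is held at the actin motor complex. It was at 14.2 and 8.68 TPM in H929 in ethanol and 20.1 and 17.1 TPM in fluvastatin, and at 9.88 and 8.71 TPM in KMS11 in ethanol and 10.9 and 10.1 TPM in fluvastatin. Fluvastatin libraries were higher than ethanol libraries in both lines, with a smaller gap in KMS11. BMF rose by 0.76 (standard error 0.16, adjusted p = 0.0042) in H929 and gave 0.32 (standard error 0.16, adjusted p = 0.27) in KMS11. BID (ENSG00000015475.18, chr22:17734138-17774770, minus strand) links death receptors to mitochondria after caspase-8 cleaves it. It was at 15.8 and 13.8 TPM in H929 in ethanol and 9.09 and 7.44 TPM in fluvastatin, and at 24.8 and 23.7 TPM and 28.6 and 23.9 TPM in KMS11. In TPM the treatments were separate in H929 and overlapped in KMS11. In CPM they did not overlap in KMS11 either, at 69.1 and 72.4 in ethanol and 80.1 and 74.9 in fluvastatin. BID fell by 0.77 (standard error 0.10, adjusted p = 0.00022) in H929, a call kept in all 17 alternatives, and gave 0.13 (standard error 0.09, adjusted p = 0.42) in KMS11.

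With both lines in 1 fit and the line as a term, BBC3 rose by 2.45 (adjusted p = 0.012), BCL2L11 by 0.82 (adjusted p = 0.049) and BMF by 0.54 (adjusted p = 0.048), and the other 7 members did not pass. Of all genes, 10.4% were called and 6.50% were called higher in this fit. These 1370 calls fell to 298 and 191 without H929 ethanol replicate 1 or 2, to 216 and 369 without H929 fluvastatin replicate 1 or 2, and to 702 without KMS11 ethanol replicate 2. All 3 are BH3-only genes, and their calls were kept in 14 (BBC3), 8 (BCL2L11) and 6 (BMF) of 18 alternatives. No member passed without H929 fluvastatin replicate 1 or H929 ethanol replicate 2, and 1 passed without KMS11 ethanol replicate 2, H929 ethanol replicate 1 or H929 fluvastatin replicate 2. PMAIP1 gave 0.85 (adjusted p = 0.063) and MCL1 0.40 (adjusted p = 0.18).

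The difference between the responses was tested directly as KMS11 minus H929. MCL1 (-1.02, standard error 0.13, adjusted p = 0.00091) and BCL2L11 (-1.17, standard error 0.16, adjusted p = 0.0013) responded less in KMS11. BAX (1.03, standard error 0.23, adjusted p = 0.011) and BID (0.90, standard error 0.13, adjusted p = 0.0018), which fell in H929, had the higher response in KMS11. These 4 calls stood in all 17 alternatives, against a background of 23.2% of genes called, 11.7% higher and 11.5% lower. The difference was -1.04 for PMAIP1 (standard error 0.35, adjusted p = 0.056), which passed in 7 of 17 alternatives, and 0.94 for BBC3 (standard error 0.75, adjusted p = 0.39), whose sign turned in limma on log2(TPM + 1) (-0.76) and after removal of the trend with GC content (-0.23). The other 4 members (BCL2, BCL2L1, BAK1 and BMF) gave differences of 0.27, 0.30, -0.43 and -0.43 that did not pass. With the GC trend removed, 8 members passed, where 4356 of 13129 genes were called.

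The lines already differed in ethanol. BCL2L1 (log2 difference KMS11 minus H929 1.0, adjusted p = 1.6e-05), PMAIP1 (2.22, adjusted p = 3e-05) and BID (0.74, adjusted p = 5.3e-05) were higher in KMS11. MCL1 (-0.68), BAX (-1.07), BAK1 (-1.11), BMF (-0.77) and BBC3 (-3.70) were lower there, with adjusted p between 8.9e-05 for MCL1 and 0.0017 for BMF. BCL2 (-0.06, adjusted p = 0.60) and BCL2L11 (0.26, adjusted p = 0.061) did not pass. The background was high, with 72.0% of all genes called, 35.6% higher and 36.4% lower. The BBC3 value rests on 13 pooled KMS11 counts and ranged from -4.80 without KMS11 ethanol replicate 2 to -0.78 in limma on log2(TPM + 1). TPM moved the median of all genes by 0.315 between the lines and called 6644 of 9121 genes higher, and on that scale MCL1 (-0.18, adjusted p = 0.22), BAX (-0.35, adjusted p = 0.050) and BMF (-0.24, adjusted p = 0.30) were not called. Levels in TPM should therefore be compared between genes rather than between lines. Between treatments in KMS11, the median of all genes was -0.0833 in limma on log2(TPM + 1) and 0.00441 in edgeR. Small TPM changes between treatments in KMS11 therefore need the same care.

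Within a library, TPM gives the order of the members per length. MCL1 was the most abundant in all 4 groups. In H929 in ethanol it was followed by BAK1 and BAX, whose ranges overlapped, then BID, BMF and BCL2L1, which overlapped in turn, then BCL2, BCL2L11, PMAIP1 and BBC3, each apart from the next. In KMS11 in ethanol BCL2L1 came second, followed by BID, BAX and BAK1 with separate ranges, then BMF, BCL2, PMAIP1 and BCL2L11 with overlapping neighbours, and BBC3 last. With fluvastatin BAK1 and BAX separated in H929, BMF moved up to overlap BAX, and BID fell to overlap BCL2L11.

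Summed over roles, the pro-survival transcripts were 159 and 162 TPM in H929 in ethanol and 285 and 286 TPM in fluvastatin, and MCL1 made up 89.4% and 89.9% and then 94.3% and 94.0% of them. In KMS11 the sum was 179 and 155 TPM in ethanol and 139 and 158 TPM in fluvastatin, with MCL1 at 76.8% and 75.5% and then 68.7% and 73.0%. MCL1 over BCL2L1 was 12.7 and 14.0 in H929 in ethanol and 22.8 and 22.3 in fluvastatin, against 4.23 and 3.82 and then 2.61 and 3.36 in KMS11. The ratio thus widened in H929 and narrowed in KMS11. The effector sum overlapped between treatments in both lines, while BAX over BAK1 dropped from 0.974 and 0.931 to 0.437 and 0.467 in H929 and went from 1.09 and 1.11 to 1.33 and 1.45 in KMS11.

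The BH3-only sum was 35.1 and 27.6 TPM in H929 in ethanol and 43.2 and 40.6 TPM in fluvastatin, and 51.1 and 42.5 TPM and then 53.0 and 50.6 TPM in KMS11. Its make-up shifted more than its size in H929, where BID went from 45.1% and 50.2% to 21.1% and 18.3% of the sum, and BCL2L11, PMAIP1 and BBC3 together went from 14.6% and 18.4% to 32.4% and 39.5%. In KMS11 these 3 held 32.2% and 23.9% in ethanol and 25.6% and 32.8% in fluvastatin, which overlap. The BH3-only sum over the pro-survival sum was 0.221 and 0.171 in H929 in ethanol and 0.151 and 0.142 in fluvastatin, as the pro-survival sum grew more than the BH3-only sum. In KMS11 the same ratio was 0.286 and 0.275 in ethanol and 0.381 and 0.319 in fluvastatin. These sums are descriptions over a chosen list, without a test.

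**Figure D3:**
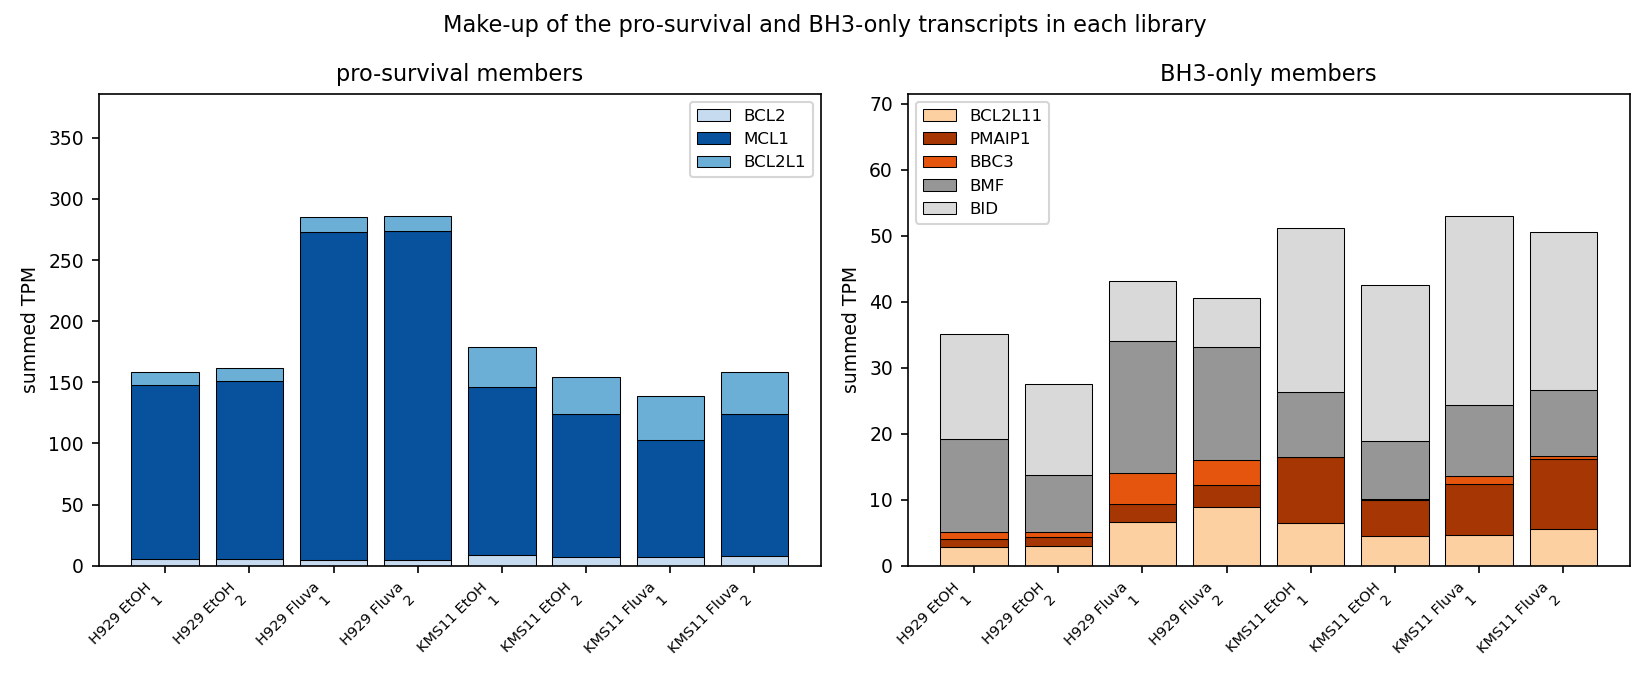
Summed TPM (y axis) of the 3 pro-survival members (left) and the 5 BH3-only members (right) in each library (x axis, EtOH is ethanol and Fluva is fluvastatin), stacked by gene. MCL1 fills 68.7% to 94.3% of every pro-survival bar, and the BID segment shrinks in the H929 fluvastatin bars.

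The length that RSEM reports for a gene is the mean length of its transcripts weighted by their abundance, and it moves when isoforms shift. It is given as values and was not tested. BCL2 had a mean of 6305 bases in H929 in ethanol and 6585 in fluvastatin, without overlap. PMAIP1 was the other member without overlap in H929 (means of 1799 and 1900 bases). Its groups were barely apart, at 1718 and 1880 bases in ethanol and 1916 and 1884 in fluvastatin, resting on 112 and 121 counts in ethanol. In H929 2 of 10 members were thus apart, where 37.2% of 12146 genes were. In KMS11 5 of 10 members were apart (BCL2, BCL2L1, BAK1, PMAIP1 and BBC3), against 34.2% of genes, among them BCL2L1 (2029 and 2169 bases) and BBC3 (1025 and 1339 bases, resting on 3 and 10 counts in ethanol). Between the lines in ethanol 6 of 10 were apart (BCL2, BAX, BAK1, PMAIP1, BBC3 and BID), against 55.2% of genes, and BID had the largest gap, with 1514 bases in H929 and 2137 in KMS11. BCL2L11 in KMS11 ranged from 3550 to 4613 bases within ethanol alone, and its mean TPM (5.44 and 5.10) and its scaled counts (30.9 and 36.3 CPM) moved in different directions there.

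The remaining genes of the pathway were taken from fixed lists. Of 13 other BCL2 family genes, 11 were tested. In H929 BCL2A1 (1.3, standard error 0.29, adjusted p = 0.0089), a pro-survival relative, BNIP3L (0.75, adjusted p = 0.00038), a mitophagy receptor, and BCL2L13 (0.37, adjusted p = 0.0063) rose, and BCL2L12 (-0.88, adjusted p = 0.0038) fell, which is 4 of 11 called against 42.0% of all genes. BCL2A1 was at 1.18 and 0.97 TPM in ethanol and 2.92 and 2.49 TPM in fluvastatin in H929, and had no count in any KMS11 library, which allows up to 0.0783 to 0.108 CPM there at 3 counts. BCL2L10 had no count in H929, and BCL2L2 had at most 3 counts in a KMS11 library. In KMS11 none of the 11 passed in edgeR, 2 had an unadjusted p under 0.05, and the values above the floor of 3 counts ran from -0.67 (BCL2L15) to 1.27 (HRK). The other 6 genes tested (BAD, BCL2L15, BCL2L2, BIK, BNIP3 and HRK) gave log2 fold changes between -0.54 and 0.40 in H929 and did not pass. The list's median log2 fold change was 0.03 in H929 and -0.01 in KMS11.

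**Figure D4:**
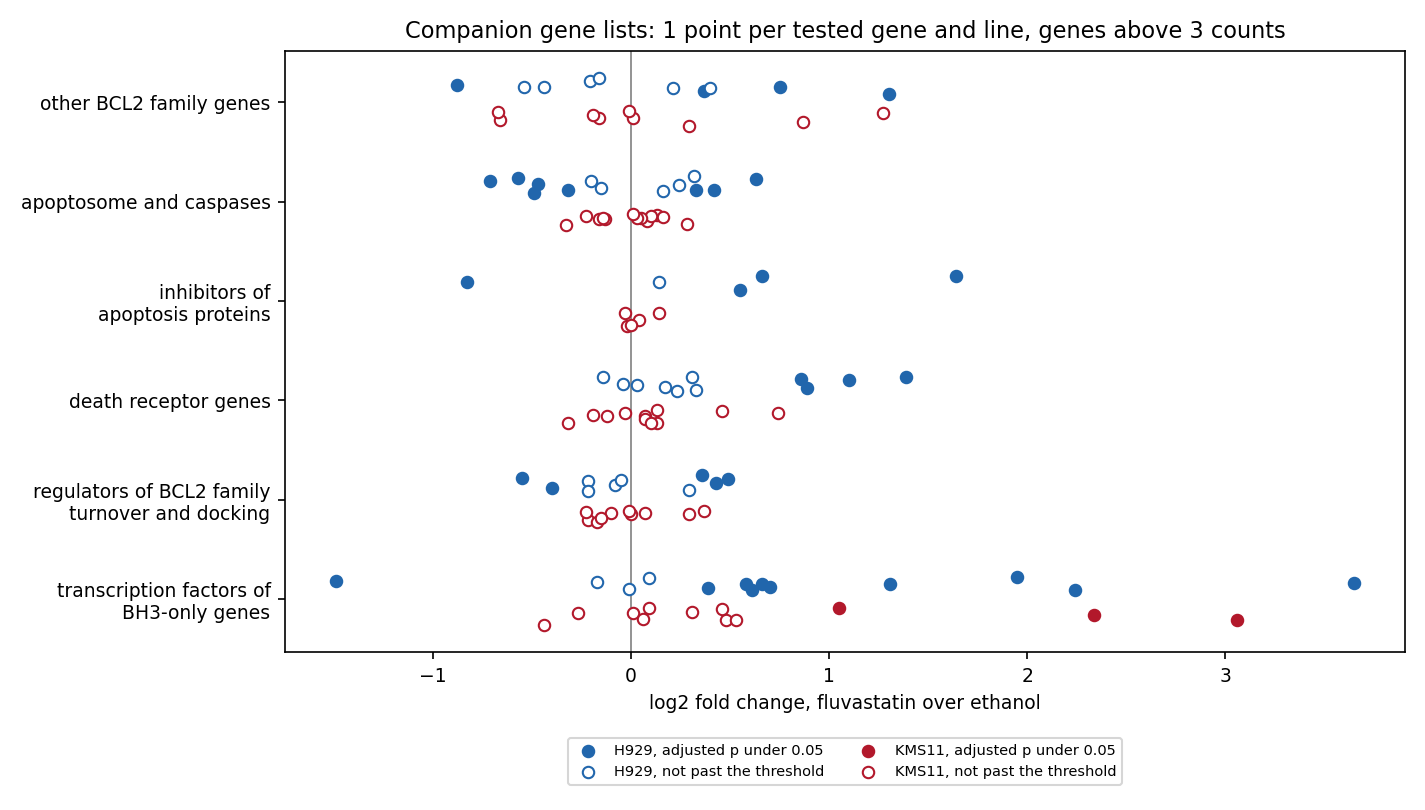
Log2 fold change (x axis, fluvastatin over ethanol) of each tested gene of 6 pathway lists (y axis) in H929 (blue) and KMS11 (red), filled where the adjusted p was under 0.05 and without genes at 3 counts or fewer in every library of the line. Filled points lie on both sides of 0 in H929, and the 3 filled points in KMS11 are JUN, ATF3 and DDIT3.

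Downstream of the mitochondria, 13 apoptosome and caspase genes were tested. In H929 3 rose and 5 fell, where 22.7% and 19.3% of all genes did, with a median of -0.15. CYCS (-0.71, adjusted p = 0.0042), which encodes cytochrome c, CASP2 (-0.57, adjusted p = 0.0014), HTRA2 (-0.49, adjusted p = 0.014) and DFFB (-0.47, adjusted p = 0.037) fell. CASP8 (0.63, adjusted p = 0.0025), the initiator that cleaves BID, and APAF1 (0.42, adjusted p = 0.048), the apoptosome scaffold, rose. In KMS11 none of the 13 passed in edgeR, and 1 had an unadjusted p under 0.05. The median there was 0.03.

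Of 5 tested inhibitors of apoptosis proteins, BIRC3 (1.64, adjusted p = 6.9e-05), XIAP (0.66, adjusted p = 0.0015) and BIRC2 (0.55, adjusted p = 0.0043) rose in H929 and BIRC5 (-0.83, adjusted p = 0.00016), also a mitotic gene, fell (42.0% of all genes called), with a median of 0.55. BIRC3 remained a scarce transcript in H929, at 0.28 and 0.23 TPM in ethanol and 0.67 and 0.71 TPM in fluvastatin, whereas KMS11 held 66.7 to 96.1 TPM. Of 11 death receptor genes, 4 rose in H929 and none fell, with a median of 0.31. Of all genes, 42.0% were called there, 22.7% higher and 19.3% lower, and whether the list differs from these shares was not tested. The death receptor genes that rose included TNFSF10 (1.39, adjusted p = 0.0026), which encodes TRAIL, and its decoy receptor TNFRSF10D (1.10, adjusted p = 0.017). The adaptor TRADD (0.89, adjusted p = 0.0029) and CFLAR (0.86, adjusted p = 7.6e-05), an inhibitor of caspase-8, rose as well. In KMS11 no gene of either list passed in edgeR, and 0 inhibitors and 1 death receptor gene had an unadjusted p under 0.05.

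Among 10 regulators of turnover and docking of BCL2 family proteins, FBXW7 (0.49, adjusted p = 0.0014), a ubiquitin ligase subunit for MCL1, BECN1 (0.43, adjusted p = 0.0062), and USP9X (0.36, adjusted p = 0.014), which deubiquitinates MCL1, rose in H929. DYNLL1 (-0.55, adjusted p = 0.00066), the dynein light chain that holds BCL2L11, and VDAC2 (-0.40, adjusted p = 0.0085), which holds BAK1 in the mitochondrial membrane, fell. The median was -0.07, and 42.0% of all genes were called. In KMS11 none passed in edgeR, and 3 had an unadjusted p under 0.05.

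The list of transcription factors that act on BH3-only genes was, of the 6 lists, the only one with calls in both lines. It also holds TRIB3, which is not itself a transcription factor. Of 13 tested, 9 rose and 1 fell in H929, with a median of 0.61, and 3 rose and none fell in KMS11, with a median of 0.38, where 42.0% and 3.12% of all genes were called. JUN, a subunit of AP-1, went from 0.79 and 0.56 TPM to 8.17 and 8.82 TPM in H929 (log2 fold change 3.65, adjusted p = 1.9e-06) and from 1.05 and 0.73 TPM to 6.64 and 6.74 TPM in KMS11 (3.06, adjusted p = 2.4e-05). ATF3 rose by 2.24 in H929 and 2.34 in KMS11, and DDIT3, which encodes CHOP, rose by 1.95 and 1.05. E2F1 fell by 1.49 in H929 (adjusted p = 2.2e-05) and gave 0.48 in KMS11 (adjusted p = 0.061). TRIB3 (1.31, adjusted p = 2.5e-05) and ATF4 (0.70, adjusted p = 0.0017) rose in H929, and in KMS11 they gave 0.46 (adjusted p = 0.056) and 0.31 (adjusted p = 0.19).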

How the data were processed

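RNA from 8 libraries of H929 and KMS11 cells was sequenced after ribosomal RNA depletion with a stranded kit. The authors aligned reads with STAR 2.5.2b and quantified genes with RSEM 1.3.0 against GENCODE 26 (versions per the submitters' processing notes and methods), and deposited expected counts, TPM and an abundance-weighted length per gene for hg38. Names and positions came from GENCODE 44. Expected counts were rounded and tested in R 4.3.3 with edgeR 4.0.16 (filterByExpr, minimum count 10 and total 15, TMM, quasi-likelihood F test, 13129 protein-coding genes). Within-line, between-line and difference tests used the means of the 4 groups, and the test over both lines had a line term. A standard error is the log2 fold change over the square root of F. Alternatives used DESeq2 1.42.0, limma 3.58.1 on log2(TPM + 1), other scalings and filters, a GC trend, and omission of each library. The fits were tested on simulated data. FPKM was not used. Replicates differed by more than counting error in all groups.

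The members and lists were chosen with earlier results of these data known. Text names all members, all tested genes of the other BCL2 family list, and up to 6 genes per further list that passed in a line, by largest absolute change. The cell type markers outside this rule were named after their values were seen. Results that concern withheld items are not reported here.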

Additional observations from a re-analysis of the deposited data

Results flagged for a closer look

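The response in KMS11 minus the response in H929 was tested for the 10 members and 11 other family genes. It passed the threshold for 7 of them, where 23.2% of all genes passed, and whether the family differs from that share was not tested. Of the 11, 3 (BCL2A1, BCL2L10 and BCL2L2) had at most 3 counts in every library of 1 line. Among the members, the genes that passed were MCL1 (-1.02), BCL2L11 (-1.17), BAX (1.03) and BID (0.90). Among the other family genes they were BCL2L12 (1.17, adjusted p = 0.011), which fell in H929, BNIP3L (-0.76, adjusted p = 0.0063), which rose there, and BAD (1.41, standard error 0.45, adjusted p = 0.048). BAD encodes a BH3-only protein and did not pass in either line alone: it was at 6.23 and 4.87 TPM in ethanol and 4.6 and 3.20 TPM in fluvastatin in H929, and at 6.48 and 6.46 TPM against 12.9 and 8.0 TPM in KMS11.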

How the results depend on the processing

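In H929 7 to 9 members passed under all 17 alternatives. In KMS11 the count of 1 became 2 with DESeq2 and with no filter and 0 with limma on log2(TPM + 1), and it ranged from 0 to 3 with 1 library left out. Without KMS11 fluvastatin replicate 2 it was 3 (BBC3, BCL2L1 and BAX). Over both lines the count of 3 was 1 with all annotated genes, 1 with limma, 5 with the GC trend removed, 0 without the line term and 0 to 4 with 1 library left out. For the difference between responses 4 became 8 with the GC trend removed. Calls over all 13129 genes rose in that setting too. They went from 1370 to 3017 over both lines and from 3048 to 4356 for the difference. With a replicate block the count was 3 in KMS11 and 0 over both lines, 8 in H929 as without the block, and 6 for the difference, where PMAIP1 (-1.0, adjusted p = 0.036) and BMF (-0.46, adjusted p = 0.038) were added. The deviations of libraries with the same number correlated at 0.774 in H929 and -0.078 in KMS11 (5561 genes), so the numbers were not taken to pair the libraries.

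Signs turned for these values, none of which was past the threshold as reported, and 1 of which (BCL2 between lines with limma, adjusted p = 0.024) was past it once turned. In KMS11 BCL2 was -0.03 without ethanol replicate 2 or fluvastatin replicate 2 (range -0.03 to 0.13 with 1 library left out) and -0.07 with limma. BAK1 there was -0.21 without fluvastatin replicate 1 (range -0.21 to 0.35), -0.05 with limma and -0.19 with the GC trend removed. BCL2L11 there was -0.06 with limma. Over both lines BAX was 0.07 without H929 ethanol replicate 1, and 0.04 or 0.10 without H929 fluvastatin replicate 1 or 2 (range -0.27 to 0.10). For the difference, BCL2L1 was -0.19 with the GC trend removed, and BBC3 was -0.76 with limma and -0.23 with the GC trend removed. Between lines in ethanol BCL2 was 0.03 without KMS11 ethanol replicate 2 (range -0.14 to 0.03) and 0.43 with limma (adjusted p = 0.024). With TMM-scaled counts per kilobase the log2 ratio of the pro-survival sum in KMS11 was -0.02 in place of -0.16, and that of the BH3-only sum 0.29 in place of 0.15. The causes were not tested. Of calls over all genes in KMS11, 339 of 409 were higher, against 127 of 223 with limma on TPM and 910 of 1558 with the GC trend removed. Over both lines 854 of 1370 were higher, against 323 of 1098 with limma. The calls over all genes with the replicate block were 1637 in KMS11 and 158 over both lines, and in KMS11 they were 852 with DESeq2 and 1098 with no filter. Single-gene values kept their side of the threshold in 765 comparisons, gained it in 32, lost it in 38 and turned sign in 15. BBC3 in KMS11 rests on 3 to 60 counts a library.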
